A study of Drosophila melanogaster with 2 samples.

Results

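The 10 cell death genes described here were hid, rpr, grim and skl, which induce apoptosis, the caspases Dronc, Drice and Dcp-1, the caspase activator Dark, the caspase inhibitor Diap1 and the Bcl-2 family gene Debcl. They were taken as a named list from 13968 protein-coding genes on the main chromosome arms. Where Ken was recovered on chromatin was mapped by ChIP-seq in whole embryos of Drosophila melanogaster, aged 0 to 24 h, of a strain called ken-GFP that carries a transgene for Ken fused to eGFP. Ken (from ken and barbie) is a zinc finger protein with a BTB domain that represses some target genes of JAK-STAT signalling. There was 1 group with 2 biological replicates; the description names an antibody against GFP, and a separate field gives ken as the antibody. Neither the promoter that drives the fusion nor the allele at the endogenous locus is given in the sources used here, and a possible control experiment named in the labels was not analysed here. A gene was called bound when the summit of a thresholded peak lay within 1000 bp of any of its transcription start sites (TSSs). In a whole-embryo sample, binding in fewer cells and weaker binding per cell cannot be told apart.

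In Drosophila, apoptosis is held back by Diap1, an E3 ubiquitin ligase that binds caspases and keeps them inactive. Hid, Rpr, Grim and Skl carry a short N-terminal motif that binds Diap1 and frees the caspases, and the developmental choice to die is made largely by transcription of hid, rpr and grim. The initiator caspase Dronc is activated on a scaffold of Dark, the fly counterpart of Apaf-1, and then cleaves the effector caspases Drice and Dcp-1. Diap1 is also known as a target of Stat92E, the transcription factor of the JAK-STAT pathway, in the wing disc.

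The Diap1 promoter, at which the lists differed most, is shown first, beside those of a pair of death inducers. Sequences are from the RefSeq copy of the Release 6 assembly (dm6), on the strand of the gene, and end at the base before the TSS. Capitals mark the words searched for: CGATA, a core bound by the insulator protein BEAF-32 and contained in TATCGATA, the element bound by DREF, and the Ken consensus words GNGAAAG and GNGAAAT. The first line is the Diap1 promoter, at chr3L:16051035-16051184 on the minus strand, where a peak lay in some of the lists. The other lines are skl, at chr3L:18439943-18440092, and hid, at chr3L:18185642-18185791, both also on the minus strand, where no peak was listed.
Diap1: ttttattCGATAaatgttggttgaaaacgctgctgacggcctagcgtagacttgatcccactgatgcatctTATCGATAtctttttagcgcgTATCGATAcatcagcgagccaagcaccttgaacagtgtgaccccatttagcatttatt
skl: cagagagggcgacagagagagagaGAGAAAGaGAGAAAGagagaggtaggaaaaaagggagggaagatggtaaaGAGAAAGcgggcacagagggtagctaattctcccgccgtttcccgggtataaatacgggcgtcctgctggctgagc
hid: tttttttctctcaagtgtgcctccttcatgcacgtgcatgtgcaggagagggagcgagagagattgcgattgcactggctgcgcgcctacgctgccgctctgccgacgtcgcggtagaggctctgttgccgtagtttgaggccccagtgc
The Diap1 promoter held TATCGATA at 79 and 58 bp before its outermost TSS. The skl promoter held GNGAAAG at 126, 118 and 76 bp before its TSS, the first pair within a run of repeated GA. The hid promoter held none of the words marked in capitals.

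Of the 10 genes, 2 were bound in the conservative list made from both replicates, Dcp-1 and Debcl. That is 20.0% (exact 95% interval 2.52% to 55.6%), beside 17.2% of all protein-coding genes, so the share was near the background. None of the 4 death inducers was bound (upper bound of the exact interval 60.2%). Of the 3 caspases and Dark, 1 was bound, and of Diap1 and Debcl 1 was bound. In the other pooled thresholded list 3 of 10 were bound, since Diap1 was added, against 18.6% of all genes. In replicate 1 the bound genes were Dcp-1 and Diap1, against 13.2% of all genes. In replicate 2 they were Dcp-1 and Debcl, against 16.3% of all genes. Dcp-1 was thus the member called in each of the 4 lists, and the inducers were called in none of them. The bound above treats the 4 inducers as independent, while they are neighbours in the cluster described below. It shows only how little a count over 4 genes can tell, and no wider share is read from it. No member had a summit inside the gene, from its first to its last annotated base, in any of the 4 lists, where 5.41% of all genes had one in the conservative list.

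**Figure D1:**
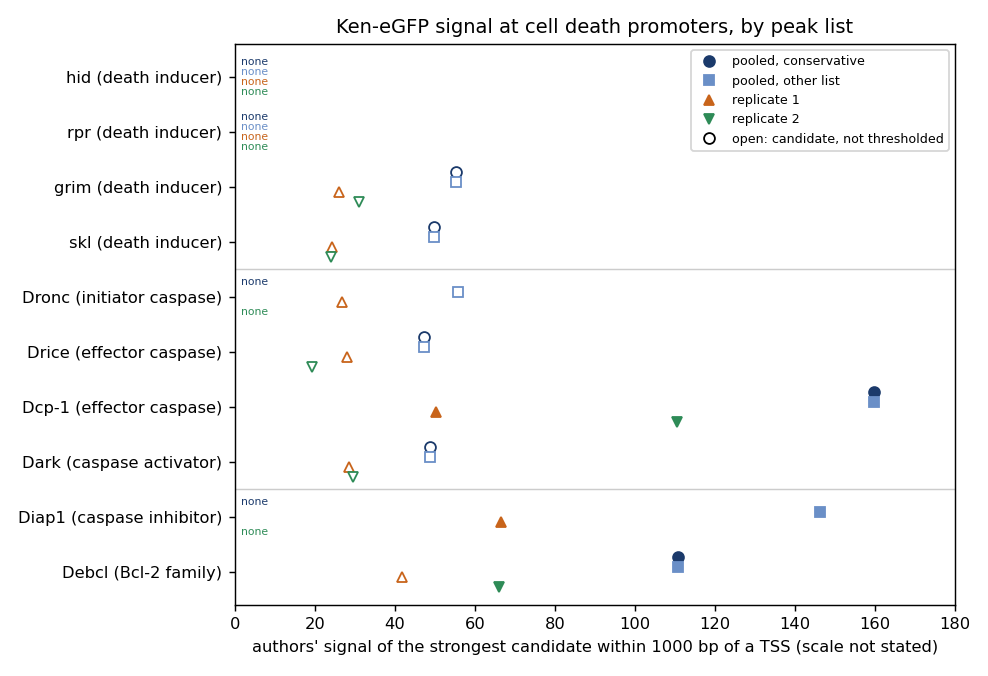
Authors' signal of the strongest candidate within 1000 bp of a TSS (x axis, scale not stated) for each of the 10 genes (y axis), with 1 marker for each of the 4 peak lists; filled markers are thresholded peaks, open markers are candidates that were not thresholded, and "none" means that no candidate was listed. Dcp-1 is filled in all 4 lists, Diap1 in the other pooled list and replicate 1, Debcl in 3 lists, and the 4 inducers are open or empty throughout.

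Behind these calls stand lists of unequal length. The conservative list held 2087 peaks and the other pooled list 2356, while replicate 1 had 1544 and replicate 2 had 1819. Each came with a ranked list of weaker candidates, 152561, 156199, 137061 and 124478 in the same order, and the one that belongs to the conservative list is called the main ranked list here. The number of reads per library is not known. The signal is the authors' value for each peak, and its scale is not stated, so it is compared within a list. The median signal of the strongest promoter peak of a bound gene was 153.1 in the conservative list, 144.3 in the other pooled list, 83.54 in replicate 1 and 88.19 in replicate 2. Genes that had only candidates had medians of 35.33, 34.97, 22.1 and 18.35.

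The death inducers were described through their best ranked candidates, which are positions that did not pass the threshold. For grim, whose product binds Diap1 and also acts at mitochondria, the strongest candidate near the TSS had a pooled signal of 55.39, 736 bp from the TSS inside the gene. Its global irreproducible discovery rate (IDR), which is low when a peak keeps its rank between sets of reads and was 0.01 or less for the thresholded peaks, was 0.291. The strongest candidates near grim had 26.16 in replicate 1, at 650 bp, and 31.16 in replicate 2, at 193 bp on the other side of the TSS. The replicates therefore did not place their strongest candidate at the same position. The pooled value stood at the 70.8th percentile of the genes that had a candidate near a TSS. Within 500 bp of the TSS the strongest pooled candidate of grim had 34.2.

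The skl gene encodes Sickle, the fourth protein of the family. Its strongest candidate had a signal of 49.9, lay 323 bp from the TSS and had a global IDR of 0.31. The strongest candidate of replicate 1 had 24.24 at 276 bp, inside the gene. That of replicate 2 was a different one, with 24.14 at 950 bp on the other side of the TSS. The pooled value was at the 65.9th percentile of genes, above the 35.33 median of genes without a peak and below the 153.1 median of bound genes. The 3 GNGAAAG words printed above lay between the TSS and 126 bp before it, while the pooled candidate lay on the other side, inside the gene.

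For hid and rpr no candidate was listed within 1000 bp of the TSS in any of the 4 ranked lists. The hid product is the inducer inhibited by Ras signalling, and rpr is the inducer that responds to ecdysone and to p53. The stretch without any candidate around the hid TSS was 35199 bp long in the main ranked list, 34162 bp in that of the other pooled peaks, 13543 bp in replicate 1 and 19542 bp in replicate 2. Around the rpr TSS it was 19788, 18977, 17226 and 20135 bp in the same order. Stretches of this length were uncommon. In the main ranked list, 1.96% of all genes lay in a stretch at least as long as that of hid and 4.39% in one at least as long as that of rpr. No candidate in any of the 4 lists was the case for 529 genes, or 3.79%, so the absence is a state that hid and rpr shared with many genes. Whether reads could be placed in these stretches was not tested. Within the body of hid the main ranked list had 6 candidates, the strongest with a signal of 26.99 at 8713 bp from the TSS and a global IDR of 0.574. Replicate 1 had 14 there, the strongest with 34.6 at 14398 bp and a global IDR of 0.21, and replicate 2 had 6, the strongest with 12.31. Within rpr there was none in any list.

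The 4 inducers lie in 1 cluster on 3L, from 18167745 to 18439942, a span of 272.2 kb in the order hid, grim, rpr and skl, with all 4 on the minus strand. The intergenic DNA between them is known to hold the enhancers that switch these genes on in the embryo. No thresholded peak lay in the span in any of the 4 lists. At the average density of the arm the span would have held 3.41 peaks of the conservative list, 3.92 of the other pooled list, 2.54 of replicate 1 and 2.84 of replicate 2. Over its whole length candidates were sparser than along the arm, at 0.628 per kb against 1.06 in the main ranked list. The densities were 0.724 against 0.989 in replicate 1 and 0.643 against 0.876 in replicate 2. Stretches of at least 10 kb without any candidate took up 52.2% of the span in the main ranked list, beside 15.5% of the arm, a length chosen after the data were seen. They took up 39.4% in replicate 1 and 39.2% in replicate 2, beside 9.38% and 17.0% of the arm. Outside such stretches the main ranked list had 1.31 candidates per kb in the span and 1.25 on the arm, and the arm average would give 1.93 conservative peaks there. Whether peaks could have been called in these stretches was not tested. The median signal of the candidates was 19.87 in the span and 20.17 on the arm, with 13.58 and 13.09 in replicate 1 and 10.82 and 11.75 in replicate 2.

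The strongest candidate of the span lay in intergenic DNA, 44410 bp from grim, with a signal of 65.51 and a global IDR of 0.0598. In replicate 2 the strongest candidate, with 34.23, had its summit within 13 bp of that place. In replicate 1 the strongest one was elsewhere, 29711 bp from rpr, with a signal of 37.07 and a global IDR of 0.857. The nearest peaks of the conservative list flanked the cluster from afar. On the hid side the nearest was 53206 bp outside the span, at CG32195, with a signal of 75.81. On the skl side it was 181346 bp outside, 841 bp from a TSS of not, the gene of a histone ubiquitin protease, with a signal of 115.9. From the TSS of rpr to the nearest peak was 222853 bp, and from that of grim 189878 bp.

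**Figure D2:**
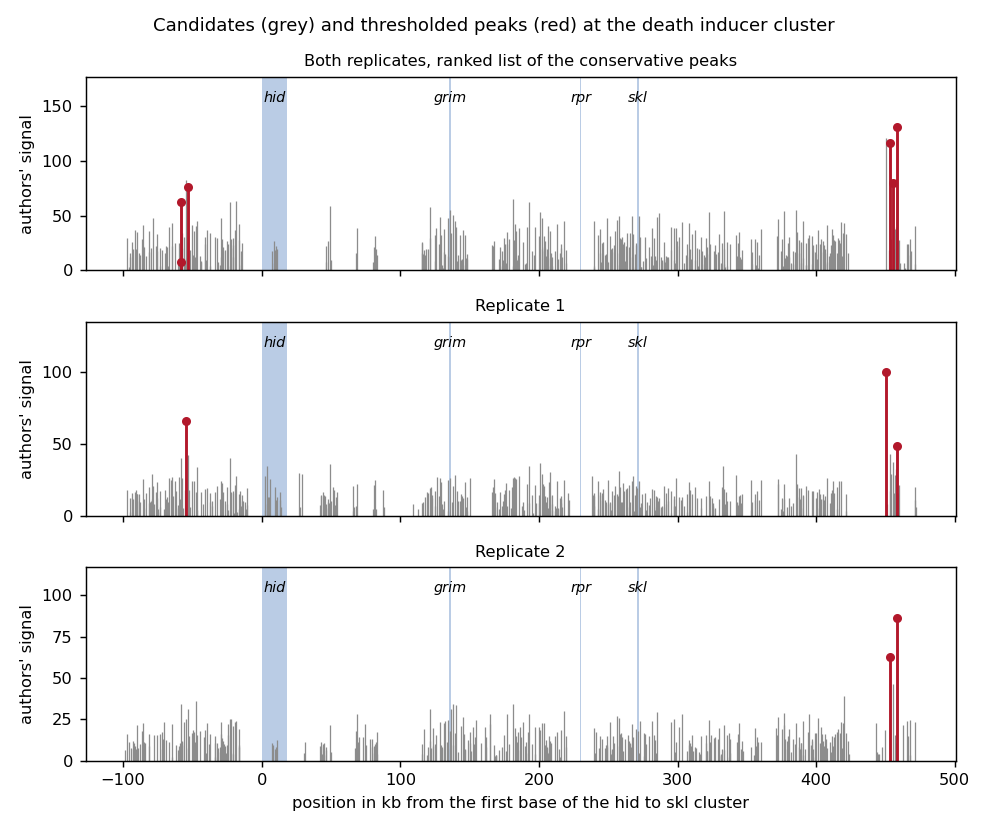
Candidates (grey) and thresholded peaks (red) by position in kb from the first base of the cluster (x axis), with the authors' signal as height (y axis), in the main ranked list and in replicates 1 and 2; blue bands are the 4 genes. No red bar falls between hid and skl in any panel, and stretches without any candidate surround the TSSs of hid, at 17.9 kb, and rpr, at 230.7 kb.

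Among the caspases, Dcp-1, an effector caspase required for cell death in the ovary on starvation, was bound in every list. Its peak spanned 23551075 to 23551484 on chromosome arm 2R, with the summit 33 bp before the TSS. The signal was 159.7 in both pooled lists, rank 750 of 2087 by signal in the conservative list, with a global IDR of 0.000937. In replicate 1 the signal was 50.35, rank 1301 of 1544, and in replicate 2 it was 110.5, rank 523 of 1819. The summits of the replicates lay 5 and 3 bp from the pooled one. The position repeated closely, while the peak stood near the end of the list of replicate 1 and in the stronger part of that of replicate 2. The Dcp-1 gene lies within pita, the gene of a zinc finger protein on the other strand. The summit fell in the 5' UTR of pita, 271 bp from a TSS of it, so the peak lay within 1000 bp of both genes and cannot be given to 1 of them from its position. The Dcp-1 promoter held CGATA 12 bp before the TSS and GNGAAAG 123 bp before it.

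Drice, a main effector caspase and a substrate of Dronc, had candidates and no peak. The strongest near its TSS had a signal of 47.18 at 199 bp, with a global IDR of 0.775. It had 28.03 in replicate 1, at 132 bp, and 19.34 in replicate 2, at 11 bp. The pooled value was at the 62.5th percentile of genes. The nearest conservative peak, with a signal of 129.8, lay 3393 bp from the Drice TSS and 106 bp from a TSS of Etfb, a subunit of the electron transfer flavoprotein.

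Dark resembled Drice in level, with a candidate of 48.71 at 96 bp from its TSS, the 64.5th percentile of genes. The global IDR of this candidate was 0.055, the lowest among the members that had a candidate and no peak in the conservative list. The strongest candidates of the replicates lay further out, with 28.56 at 632 bp in replicate 1 and 29.57 at 553 bp in replicate 2. Those of the replicates were both before the TSS, while the pooled candidate lay on the other side, inside the gene. The Dark promoter held CGATA at 106 and 39 bp before the TSS and GNGAAAT at 32 bp. The nearest conservative peak was 4093 bp away, 40 bp from a TSS of Ehbp1, with a signal of 179.4.

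Dronc, the initiator caspase, gave different answers by list. No candidate lay near its TSS in the main ranked list or in replicate 2, where the stretches without candidates around the TSS were 10873 and 11364 bp long. The other pooled list had a candidate of 55.92 at 348 bp, with a global IDR of 0.706, and replicate 1 had one of 26.72 at 350 bp. Neither was thresholded. The nearest conservative peak was 104097 bp from the TSS, at iPLA2-VIA, the gene of a phospholipase. The Dronc and Drice promoters held none of the 9 words searched.

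Diap1, the inhibitor on which the inducers act, split the lists in the same way with a stronger value. In the other pooled list a peak spanned 16050915 to 16051324 on 3L, with a signal of 146.4, rank 858 of 2356, and a global IDR of 0.000786. Its summit lay in intergenic DNA 86 bp before the outermost of the 5 TSSs of Diap1. In replicate 1 the signal was 66.51, rank 917 of 1544, at 119 bp before the same TSS, with a global IDR of 0.0017. The conservative list and replicate 2 had neither a peak nor a ranked candidate there. The stretch without candidates was 26716 bp long in the main ranked list and 33704 bp in replicate 2, and 2.74% and 2.12% of all genes lay in stretches as long. In replicate 1 there were 11 candidates within 1000 bp of a Diap1 TSS.

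The pooled signal at Diap1 exceeded that of replicate 1 by 79.9. Across the 1910 conservative peaks with a candidate in both replicates, the pooled signal was a median 0.995 times the sum of the replicates' signals, with the 5th to 95th percentiles at 0.817 to 1.09. At Diap1 no replicate 2 value was listed to complete such a sum, and the cause of its absence was not tested. A candidate of replicate 1 alone lay behind 93 peaks of the other pooled list, or 4.06% of its 2288 peaks on the main arms. Over all genes, 383, or 2.74%, had candidates near a TSS in the other pooled list and replicate 1 and none in the other pair of lists, Dronc and Diap1 among them. Only 10 of the 383 were bound in both lists that held them, and Diap1 was among these. The nearest conservative peak to Diap1 was 28723 bp away, at a TSS of mib1, an E3 ligase of the Notch pathway. The Diap1 peak of the other pooled list was also 839 bp from a TSS of Mbs, the gene of a myosin phosphatase subunit on the other strand.

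Debcl, a Bcl-2 family protein that promotes death, was bound in 3 of the 4 lists. Its peak spanned 6648361 to 6648770 on 2R, in intergenic DNA, with the summit 88 bp before the TSS and no TSS of another protein-coding gene within 1000 bp. The signal was 110.8, rank 1239 of 2087, and the global IDR 0.00295. In replicate 2 the signal was 66.04, rank 1094 of 1819, with the summit 14 bp from the pooled one. In replicate 1 a candidate of 41.91 lay 40 bp from the pooled summit with a global IDR of 0.152, and it was not thresholded. Debcl was therefore called by replicate 2, Diap1 by replicate 1 and Dcp-1 by both. A further candidate inside Debcl, 3837 bp from the TSS, had a signal of 66.05. Its global IDR was 0.0266 in the main ranked list and 0.453 in that of the other pooled list. Neither the promoter of Debcl nor the 100 bp on each side of its summit held any of the 9 words.

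**Figure D3:**
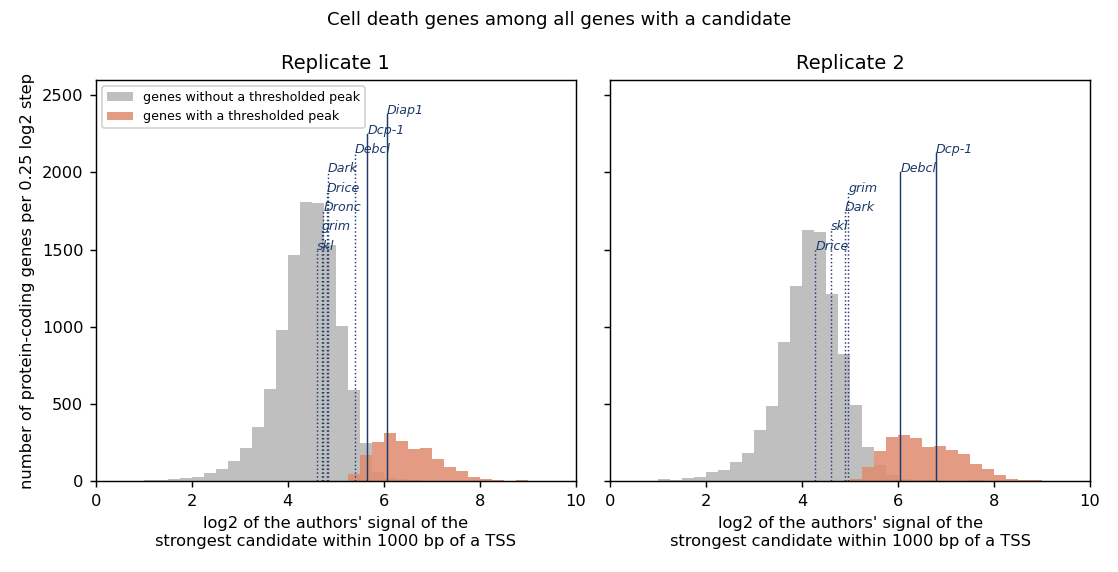
Number of protein-coding genes (y axis) by the log2 of the authors' signal of their strongest candidate near a TSS (x axis, steps of 0.25), for genes without (grey) and with (orange) a thresholded peak in each replicate; vertical lines mark the cell death genes, solid where bound. Diap1 in replicate 1 and Dcp-1 and Debcl in replicate 2 lie where orange exceeds grey, Dcp-1 in replicate 1 lies in the overlap, in a step with 169 bound and 251 unbound genes, and skl, grim, Drice and Dark lie within the grey part in both replicates.

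Words were sought on both strands from 250 bp before to 50 bp after every TSS. CGATA was held by 71.2% of the promoters of bound genes and by 39.4% of the other promoters, 45.6% of all 19276. Counted by gene, 7404 of all 13968 had it in at least 1 promoter. Among the 10 genes, Dcp-1, Dark and Diap1 held it, 1 of them bound in the conservative list and 2 bound in the other pooled list. The 4 inducers all lacked it. TATCGATA, held by 7.98% of all promoters and 24.8% of those of bound genes, was in the Diap1 promoter alone among the 10. Within 100 bp of the conservative summits CGATA was found at 75.3% and TATCGATA at 29.4%; CGATA was at the Dcp-1 summit and not at that of Debcl. GGTCACACT, the word of the promoter factor M1BP, was in 5.22% of all promoters and, of the 10, in that of Diap1.

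The Ken words had close shares in both sets of promoters. GNGAAAG was in 14.5% of the promoters of bound genes and 15.5% of the others, 15.3% of all, and of the 10 genes skl, Dcp-1 and Diap1 held it. In Diap1 it lay before an inner TSS and not in the sequence printed above. GNGAAAT was in 22.9% of all promoters and of the 10 in that of Dark. Of the Stat words, TTCNNNGAA, in 8.9% of all promoters, occurred at Dcp-1, and the form with a spacer longer by 1 base, in 9.45%, occurred at rpr and Diap1. The E-box CACGTG, in 4.01%, was in the hid and skl promoters, and CAGCTG, in 17.9%, in that of Diap1. In Diap1, CAGCTG and the Stat word with the longer spacer lay at inner TSSs alone and not in the sequence printed above. For words other than CGATA, the promoter shares were not also counted by gene. The 10 genes were counted over all their promoters, so their counts do not compare directly with those shares. A match says only that these letters are present.

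A wider list of 39 genes that act around the 10 was described by the same rule. Of these, 12, or 30.8% (exact 95% interval 17.0% to 47.6%), were bound in the conservative list, against 17.2% of all genes and 19.2% of the genes that had a candidate near a TSS. The median signal of the bound was 172.3, against 153.1 over all bound genes. The other pooled list also had 12 bound, replicate 1 had 9 and replicate 2 had 11. Each role held few genes. Bound genes were found among the further inhibitors, the caspase and adaptor genes, the Bcl-2 and mitochondrial genes, the p53 branch and the TNF and JNK branch. None was found among 5 genes of DNA fragmentation, 6 of engulfment and 2 regulators of caspases. The upper bounds of their exact intervals in the conservative list were 52.2%, 45.9% and 84.2%. In that list the exact 95% interval of every role included the 17.2% of all genes. The differences between roles were not tested.

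Of the inhibitors of apoptosis, 2 of 3 were bound. Diap2, which acts mainly in the Imd immune pathway, had a signal of 189.8, with 94.54 in replicate 1 and 94.45 in replicate 2. Bruce, a giant ubiquitin-conjugating enzyme that restrains Rpr and Grim, had 265.2, with 113.2 and 143.3 in replicates 1 and 2, though its summit was nearer to a TSS of CG12818. Det, the fly survivin-like gene, had 76.93 and was thresholded in the other pooled list and replicate 2, and not in the conservative list or replicate 1.

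EndoGI, the inhibitor of endonuclease G, had the strongest peak of the list, 579.9 and rank 17 of 2087, with 258.1 in replicate 1 and 335.8 in replicate 2. EndoG itself had a candidate of 49.77 and no peak. The other Bcl-2 family gene, Buffy, had 111.7 at a summit 522 bp before its TSS and nearer to Roc2. A further Buffy peak, with 106.7, lay 74 bp before the Buffy TSS and 64 bp from a TSS of Roc2. That further peak was thresholded in replicate 2 and not in replicate 1. The cytochrome c genes Cyt-c-p and Cyt-c-d had 113.8 and 74.21, at summits 825 and 674 bp downstream of a TSS. The Cyt-c-p summit lay in intergenic DNA outside the gene, and the Cyt-c-d summit in an intron of its gene. The Cyt-c-d summit was nearer to CG31808 and was not thresholded in either replicate. Neither gene was bound with a TSS window of 500 bp. The gene of the mitochondrial serine protease HtrA2, which cleaves Diap1, had a candidate of 39.11.

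Upstream of the inducers, p53, which activates rpr and hid after irradiation, was bound with a signal of 154.9, with 84.64 in replicate 1 and 69.99 in replicate 2, where it was not thresholded. The kinase gene lok, which acts on p53, had a candidate of 40.51. In the TNF and JNK branch, 3 of 9 were bound. They were the kinase genes Tak1 (225.2) and hep (204.4, at a summit nearer to lic) and the receptor gene wgn (99.61). A further hep peak, with 119.8, lay 30 bp before the hep TSS. That peak and the one at wgn were thresholded in replicate 2 and not in replicate 1. The TNF ligand gene egr had a candidate of 8.524, at the 1.18th percentile of genes, and bsk, the gene of JNK, and its phosphatase gene puc had none in the conservative list. The immune caspase Dredd had 222.0, at a summit nearer to a TSS of su(sable). Its adaptor Fadd had 79.27, at a summit 52 bp before the Fadd TSS, the nearest, and in the 5' UTR of pit. The Fadd peak was thresholded in replicate 2 and not in replicate 1.

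The promoters of EndoGI, the strongest of these, and p53 are shown because both hold CGATA at the summit, and p53 also holds TATCGATA, as Diap1 does. Each line is 61 bp centred on the summit, from the RefSeq copy of Release 6 (dm6), on the strand of the gene, with CGATA and TATCGATA in capitals. EndoGI is at chr2L:16257620-16257680 on the plus strand and p53 is at chr3R:23054127-23054187 on the minus strand.
EndoGI: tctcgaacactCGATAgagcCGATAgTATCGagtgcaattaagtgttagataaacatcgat
p53: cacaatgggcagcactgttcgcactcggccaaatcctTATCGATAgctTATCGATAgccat
EndoGI held 5 matches of CGATA within 100 bp of its summit, and p53 held 4, in a pair of TATCGATA elements like that of Diap1. Of the 14 conservative summits at the wider list, 12 had CGATA within 100 bp and 3 had TATCGATA, beside 75.3% and 29.4% of all conservative summits.

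**Figure D4:**
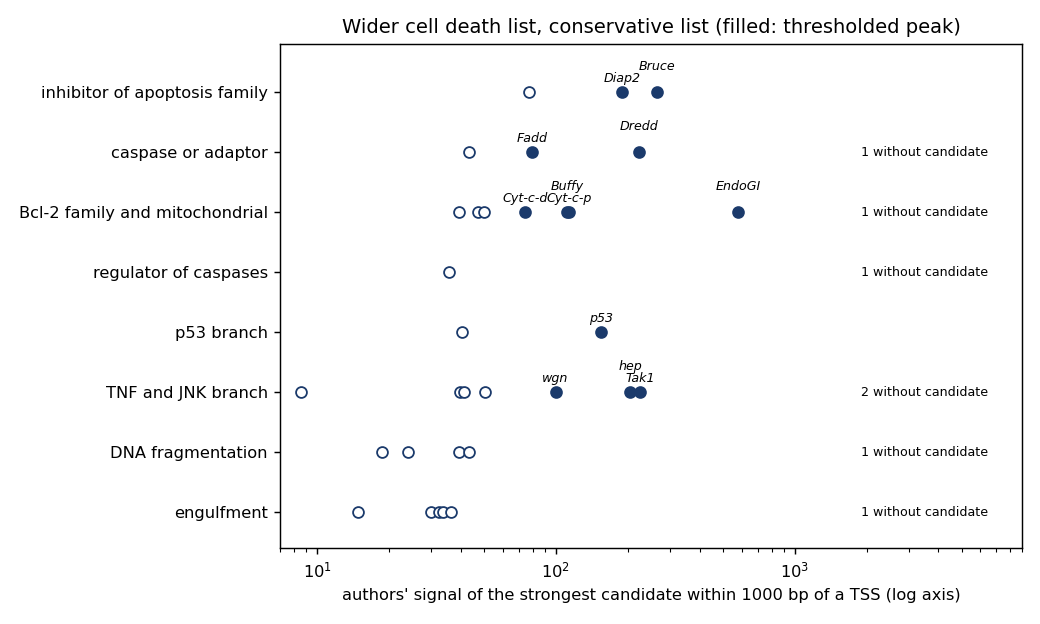
Authors' signal of the strongest candidate near a TSS in the main ranked list (x axis, log scale) for the 39 genes of the wider list, by role (y axis); filled circles are bound genes, and genes without a candidate are counted at the right. The filled circles run from 74.21 (Cyt-c-d) to 579.9 (EndoGI), and the DNA fragmentation and engulfment rows hold open circles alone.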

How the data were processed

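The sources were peak lists on dm6, per the labels. Each deposited peak carries a signal, a score capped at 1000 and the offset of its summit from its start. The authors gave the global IDR of each ranked candidate as −log10. For the aligner, the peak caller and the scale of the signal, nothing is given in the sources used here. Pooled ranked lists hold 16 per-input columns that no header ties to a replicate and that were not used. The lowest −log10 value in the conservative list was 2.001, and 107 of 2194 candidates at that level were not in the conservative list.

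Chromatin was sonicated to 200 to 800 bp, per the labels. Genes and TSSs came from Ensembl release 115; 3 wider-list symbols (Jafrac2, Tango7 and Ced-6) were matched through RefSeq synonyms. Coordinates are printed from 1. Candidates of a replicate within 200 bp of a pooled summit were taken as the same place. The genes named were the 10 members and those of the wider list, with the genes nearest to their summits. The members, the wider list of 39 and the words were chosen with earlier results of these data known, so no test was run over them, and counts stand beside all genes with exact Clopper-Pearson 95% intervals that cover counting error only. Read depth is unknown. The alternatives were the other lists, each replicate, a global IDR of 0.001, the stronger 50% of peaks, TSS windows of 500 and 2000 bp, peak overlap, the nearest TSS and a word window of 50 bp. The matching and assignment code was tested on simulated data. Python 3.11.15, pandas 2.3.3, NumPy 2.4.6, SciPy 1.17.1 and matplotlib 3.10.9 were used.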

Additional observations from a re-analysis of the deposited data

How the results depend on the processing

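The main count of 2 of 10 genes bound was also 2 with TSS windows of 500 and 2000 bp, beside 15.4% and 20.3% of all genes. The count was also 2 with any base of the peak and with the nearest TSS, beside 17.7% and 11.7% of all genes. With 1 replicate left out it stayed 2. The pair of genes then changed from Dcp-1 and Debcl to Dcp-1 and Diap1 in replicate 1. It was 3 in the other pooled list. With a global IDR of 0.001, and with the stronger 50% of peaks, it was 1 (Dcp-1). Diap1 and Debcl were then both unbound (0 of 2 in each case), and both were bound (2 of 2) in the other pooled list. The wider list fell from 12 to 7 of 39 under each of these stricter rules, while the share of all genes fell to 9.29% and 10.8%. With each summit given to the nearest TSS alone, 8 of 39 were bound, beside 11.7% of all genes. With 1 replicate left out, the wider list had 9 to 11 and all genes had 13.2% to 16.3%. Counting any base of the peak in place of the summit gave 2 members with a peak inside the gene, Dcp-1 and Debcl, where the summit rule gave 0. These were the promoter peaks, with summits 33 and 88 bp before the TSS, which extended past the TSS into the gene. The share of all genes under that rule was not counted. The GNGAAAG word near the Dcp-1 summit was found within 100 bp and not within 50 bp, which took its count from 1 to 0. Dronc and Diap1 had no main candidate to compare. The 4 inducers were called under no alternative run. No paired analysis was possible because there was 1 group. With 2 replicates and unknown depth, an unlisted or unthresholded position is not shown to be unbound.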
